A study of Mus musculus with 4 samples.

Results

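The tachykinin genes Tac1 and Tac2 and the receptor genes Tacr1 and Tacr3 were examined across coronal brain sections. They were chosen by gene symbol and account for 4 of the 19465 features measured. They were picked because earlier results of these data showed them to differ between areas and diets, so their levels by area are given as a description. The sections came from wild-type offspring of C57BL/6J dams: 2 from dams fed a control diet with 2 mg/kg folic acid (MF group) and 2 from dams fed 20 mg/kg (HF group). In both groups the diet began 2 weeks before mating and went on through pregnancy and lactation, and male pups were taken at postnatal day 21. The methods call the sections of a group biological replicates, but neither litters nor slides are given, so the p-values measure the spread between these sections. Visium-FFPE counts probe pairs ligated on the RNA of fixed tissue. Its spots are small pieces of tissue that can hold several cells, and a level is given in CPM, the unique molecular identifiers (UMIs) of a gene scaled to the total UMIs of the named area.

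Tachykinins are neuropeptides cut from larger precursors. Tac1 encodes substance P and neurokinin A, and Tac2 encodes neurokinin B. Tacr1 encodes the NK1 receptor, which prefers substance P, and Tacr3 encodes the NK3 receptor, which prefers neurokinin B; both signal mainly through Gq proteins. Tac1 is known from striatal projection neurons of the direct pathway, and Tac2 from the medial habenula, the extended amygdala and arcuate neurons that control reproduction.

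The genes lie on 3 chromosomes of GRCm38 (mm10), all on the plus strand. Tac1 (ENSMUSG00000061762) spans chr6:7554879-7565834 and Tacr1 (ENSMUSG00000030043) chr6:82402334-82560104. Tac2 (ENSMUSG00000025400) spans chr10:127724478-127731768, and Tacr3 (ENSMUSG00000028172) spans chr3:134829007-134934579. The peptide-coding stretches are shown because they are what makes the precursors one family. Each run below reads 5′ to 3′ from the GENCODE vM21 transcript with the longest coding sequence, and capitals mark the 5 codons of the carboxy-terminal motif that the peptides share.
Tac1, substance P stretch: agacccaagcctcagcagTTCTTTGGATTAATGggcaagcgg
Tac1, neurokinin A stretch: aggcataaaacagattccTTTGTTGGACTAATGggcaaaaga
Tac2, neurokinin B stretch: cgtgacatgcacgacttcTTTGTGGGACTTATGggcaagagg
The substance P stretch lies within exon 3 of Tac1 (chr6:7556732-7556773). The neurokinin A stretch runs across the junction of exons 5 and 6 (chr6:7557743-7559139) and the neurokinin B stretch across that of exons 4 and 5 of Tac2 (chr10:127728476-127729154). Of the 15 capital bases, 13 are identical between the neurokinin A and neurokinin B stretches and 10 between the substance P and neurokinin B stretches. Where the probes bind is not given in the sources used here, and the number of probe pairs can differ between genes, so levels are compared between areas and sections and not between genes.

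From 3197 to 3598 spots per section were kept, with 34982061 to 90096877 UMIs in them per section. MF replicate 1 was the deepest section, and depth is therefore unequal between the diets. Clustering without the 4 genes gave 12 named areas. The area named from medial habenula markers had Gm5741, Gpr151, Pou4f1, Gng8 and Chrna3 as its first 5 genes. Gpr151 is also a marker of the lateral habenula, so it is called habenula here. On the maps some of its spots also lie in a string along the border of the hippocampus, and the finer clustering kept 73 and 58 habenula spots in MF and 66 and 36 in HF. It held 114 and 81 spots in MF and 86 and 49 in HF. The sections do not pass through exactly the same level. At the finer clustering, a group of spots led by Agrp, Cga and Pomc, genes of the arcuate nucleus and the median eminence, held 20 and 26 spots in the MF sections, 20 in HF replicate 1 and 0 in HF replicate 2.

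**Figure D1:**
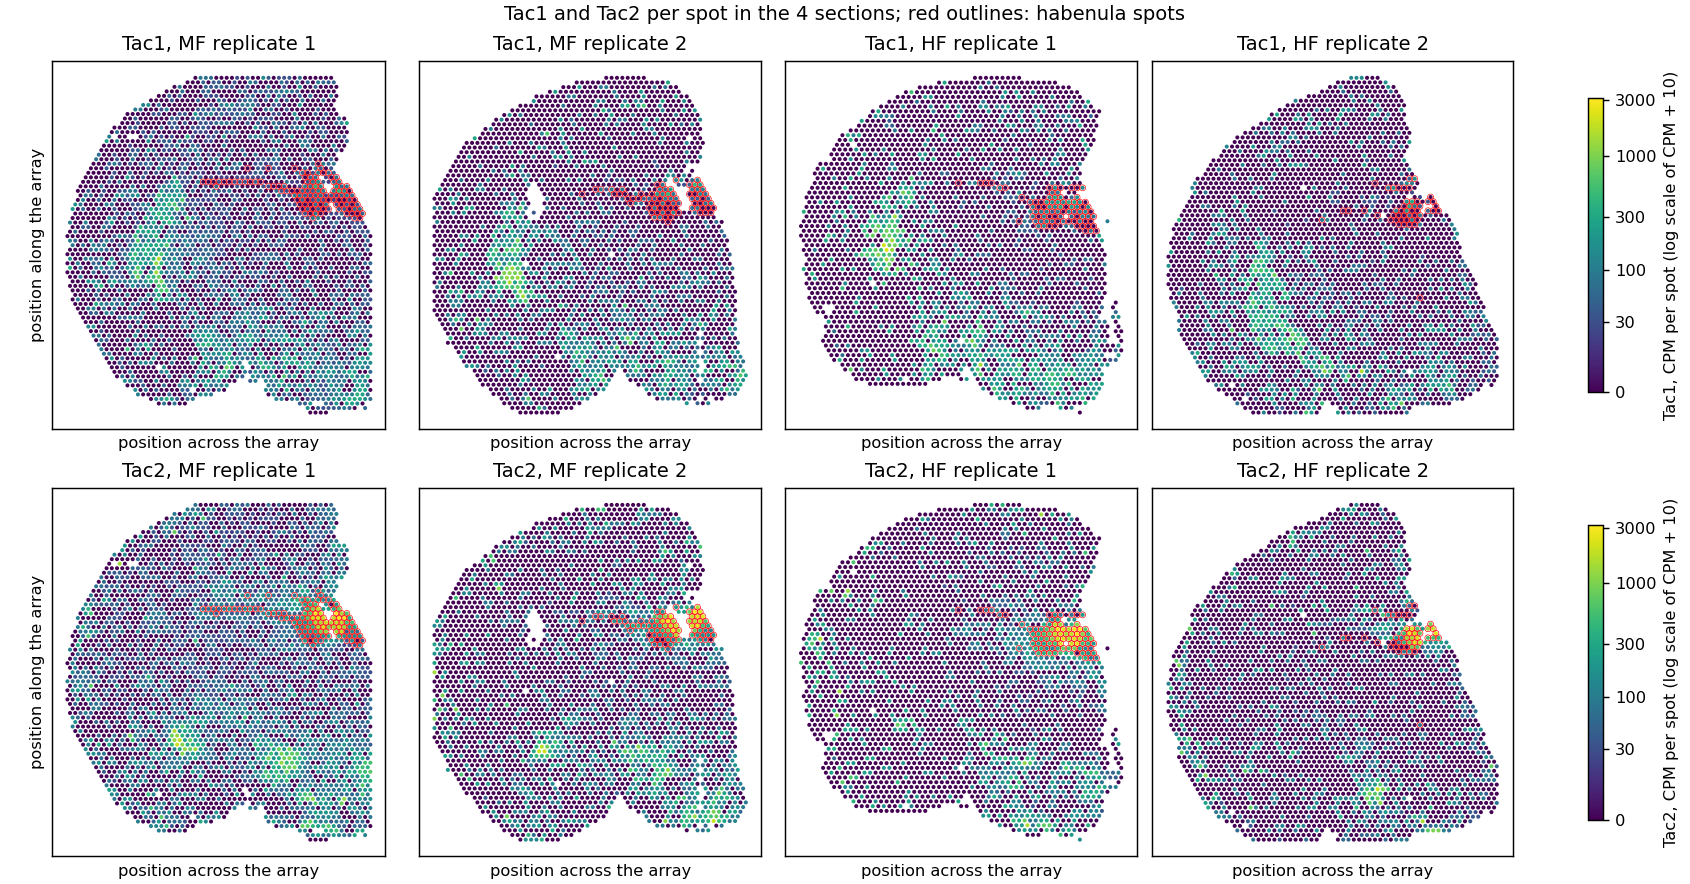
Spot maps of Tac1 (upper row) and Tac2 (lower row) in the 4 sections, with position on the array on both axes and CPM per spot as colour on a log scale; habenula spots are outlined in red. Tac1 forms a band in the striatum with a field in the hypothalamus, and Tac2 a compact patch in the habenula with smaller patches in the lower part of the section.

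Tac1 was highest in the striatum. It stood at 264 and 356 CPM in the MF sections and at 365 and 241 CPM in the HF sections, a mean of 307 ± 63.1 (SD, n = 4). The striatum held 16.3% to 29.9% of the Tac1 UMIs of a section, and from 22 to 26 of the 32 to 36 spots with the highest Tac1 CPM in each section. The hypothalamus came next with 86.2 ± 26.0 CPM, and its range of 55.2 to 119 did not reach that of the striatum. Levels then fell without a clear step, and each neighbour in the order overlapped with the next from the hypothalamus down. The lowest levels were 18.6 ± 3.60 CPM in the thalamus and 16.2 ± 3.43 in the hippocampus. Over 48 sums (12 areas in 4 sections), the genes whose log2(CPM + 1) was most like that of Tac1 were Rgs9 (Pearson's r = 0.83), Rasgrp2 (r = 0.82) and Alcam (r = 0.76), among 11514 genes. Rgs9 encodes a regulator of G protein signalling that is abundant in the striatum, and it was among the markers used to name the striatum. The sums of 1 section share a library and its depth.

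Tac2 was highest in the habenula. It stood at 723 and 837 CPM in the MF sections and at 917 and 870 CPM in the HF sections, a mean of 837 ± 82.8 (SD, n = 4). This was far above the 64.4 to 162 CPM of the hypothalamus, the next area. The habenula held 1.47% to 3.17% of the spots of a section and 36.6% to 51.6% of its Tac2 UMIs. The other areas had means of 24.8 to 87.2 CPM, and neighbours in that order overlapped. The genes most like Tac2 over the 48 sums were Chrna3 (r = 0.83), Lrrc55 (r = 0.81) and Amigo2 (r = 0.79). Chrna3, a subunit of nicotinic acetylcholine receptors, and Lrrc55, a subunit of BK potassium channels, were among the markers used to name the habenula.

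The finer clustering split the habenula in 2. The first group, led by Gm5741 and Chrna3 with Chrnb4, Lrrc55 and Nwd2 among its first 10 genes, held 19 to 31 spots per section. Tac2 there reached 1807 and 1991 CPM in the MF sections and 1757 and 1610 CPM in the HF sections. The second group, led by Gpr151 and Pou4f1 with Cbln2 and Prokr2 among its first 10, had 297 and 350 CPM in MF and 341 and 155 in HF. Tac2 was thus concentrated in the first group in every section. Tac1 was also higher in the first group, with 81.7 to 123 CPM against 7.76 to 45.7 in the second.

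**Figure D2:**
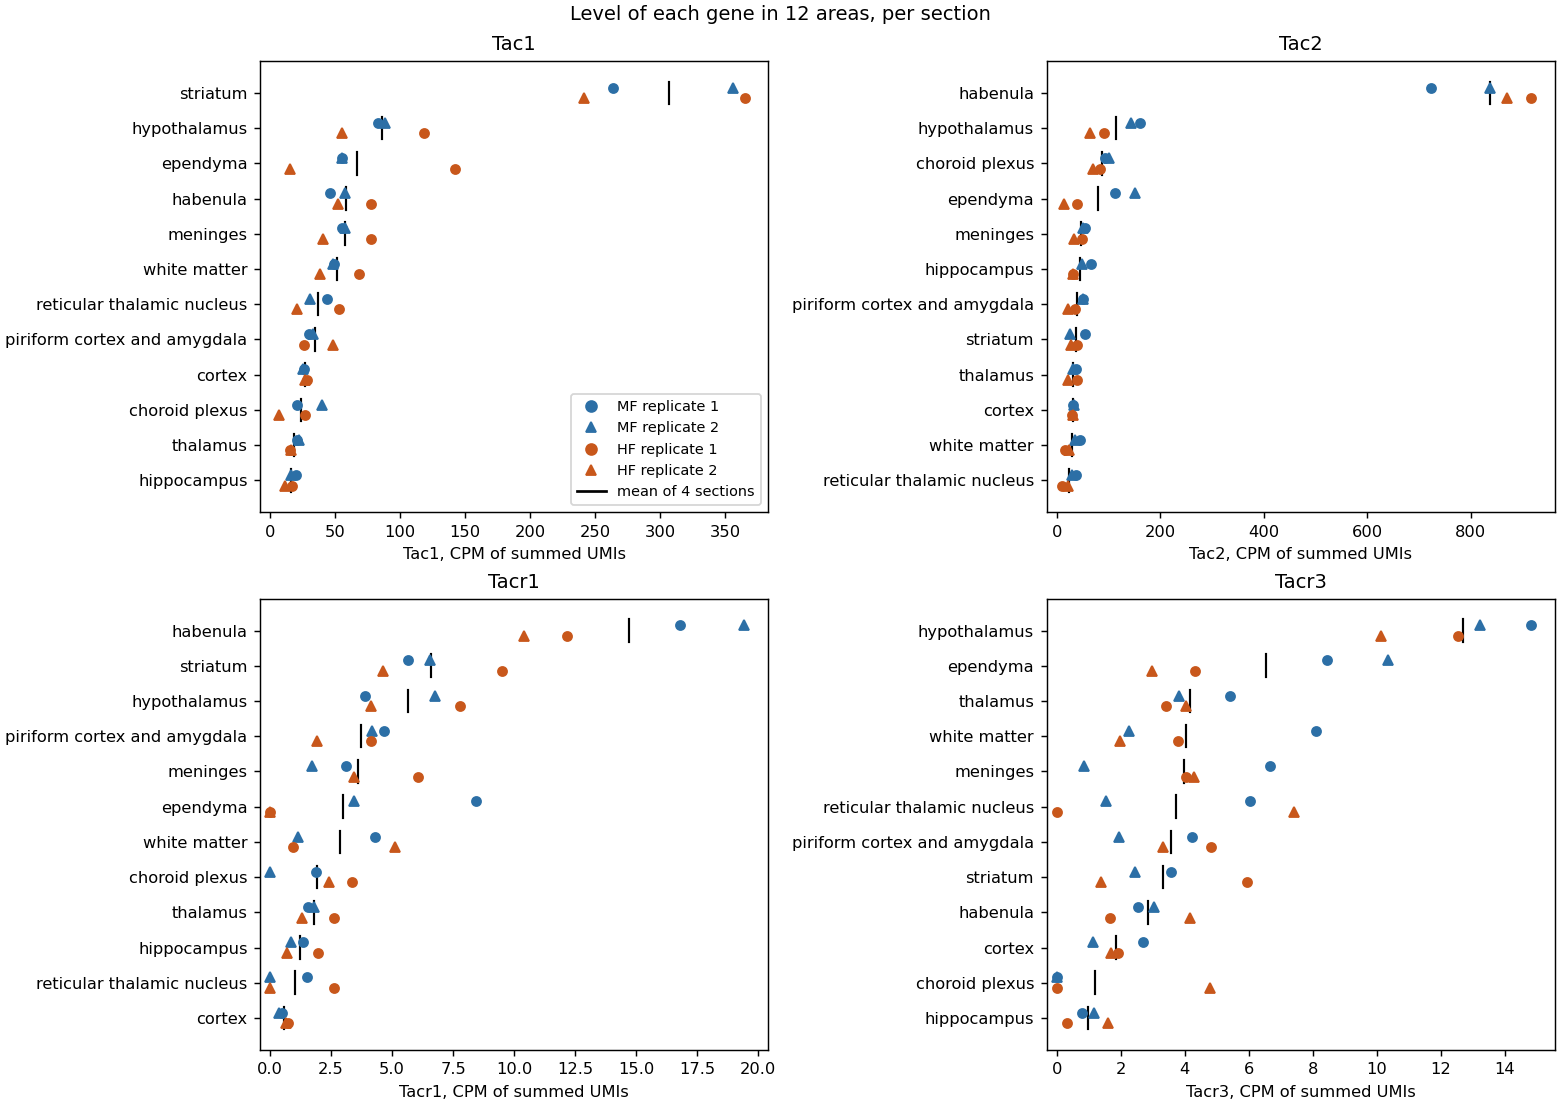
CPM of Tac1, Tac2, Tacr1 and Tacr3 in 12 areas, ordered by the mean of the 4 sections (black line), with 1 point per section. The striatum stands apart for Tac1 (241 to 365 CPM), and the habenula for Tac2 (723 to 917 CPM) and Tacr1 (10.4 to 19.4 CPM). For Tacr3 the hypothalamus is highest (10.1 to 14.8 CPM) and overlaps with the ependyma.

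The receptor genes were detected with far fewer UMIs. A section held 91 to 256 UMIs of Tacr1 and 158 to 478 of Tacr3, against 1741 to 4082 of Tac1 and 2266 to 8346 of Tac2. Spatial autocorrelation, given by the authors as Moran's I (0 for no spatial order), was 0.27 to 0.33 for Tac1 and 0.24 to 0.39 for Tac2 over the sections. It was 0.028 to 0.073 for Tacr1 and 0.034 to 0.080 for Tacr3. The median of all features in a section was 0.010 to 0.017, so the receptor genes also lay above the median in each section.

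Tacr1 was highest in the habenula, with 16.8 and 19.4 CPM in MF and 12.2 and 10.4 in HF (mean 14.7 ± 4.15, SD, n = 4). The striatum followed with 6.58 ± 2.09 CPM and the hypothalamus with 5.63 ± 1.93, and these 2 overlapped. The cortex was lowest at 0.57 ± 0.16 CPM, from 27 UMIs over the 4 sections. In the first habenula group of the finer clustering Tacr1 was at 33.4 and 42.5 CPM in MF and at 17.6 and 16.3 in HF, from 8 to 44 UMIs per section. The genes most like Tacr1 were Necab2 (r = 0.68), Tpbgl (r = 0.65) and Slc18a3 (r = 0.65), the last encoding the vesicular acetylcholine transporter. Tac2 followed with r = 0.64.

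Tacr3 was highest in the hypothalamus, with 14.8 and 13.2 CPM in MF and 12.5 and 10.1 in HF (mean 12.7 ± 1.95, SD, n = 4). The hypothalamus held 39.1% to 54.3% of the Tacr3 UMIs of a section. In the next area, the ependyma, Tacr3 rested on 9 UMIs in all. In the habenula, where Tac2 was highest, Tacr3 was at 2.85 ± 1.05 CPM, from 3 to 11 UMIs per section. The hippocampus was lowest at 0.97 ± 0.54 CPM. The finer clustering separated a group of thalamic spots led by Calb2, Lhx9 and Nmbr in which Tacr3 was at 23.2 and 20.0 CPM in MF and at 20.0 and 18.3 in HF. These values lay above the mean of the whole thalamus, 4.17 ± 0.86 CPM, in all 4 sections. The genes most like Tacr3 were AW551984, Baiap3 and Hexim2, each with r = 0.76.

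HF was then compared with MF in the whole section and in 6 areas, with the 2 sections of a diet as replicates. UMIs were summed per section and area and tested across all genes with edgeR, and a call needed an adjusted p under 0.05 and at least 1.2-fold. In sums of spots, fewer cells of a type and less RNA per cell cannot be told apart. None of the 4 genes was called in 23 tests with edgeR, and 5 of the 23 had an unadjusted p under 0.05. Those 5 were in the hippocampus, thalamus, habenula and hypothalamus. An unadjusted edgeR p under 0.05 was found there for 986 of 12290, 969 of 13406, 805 of 11670 and 897 of 13371 genes. With DESeq2, 1 of 28 tests was called, that of Tac2 in the hypothalamus. DESeq2 gave no adjusted p for the 4 genes in the hippocampus, so those tests could not be called. Of all genes tested with edgeR, 0% passed in the whole section, the thalamus and the hypothalamus. The share was 0.16% for the cortex, 0.0325% for the hippocampus, 0.06% for the habenula and 0.0446% for the striatum. Where no gene was called, 1020 (whole section), 969 (thalamus) and 897 (hypothalamus) genes had an unadjusted p under 0.05, and DESeq2 called 22, 5 and 6.

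**Figure D3:**
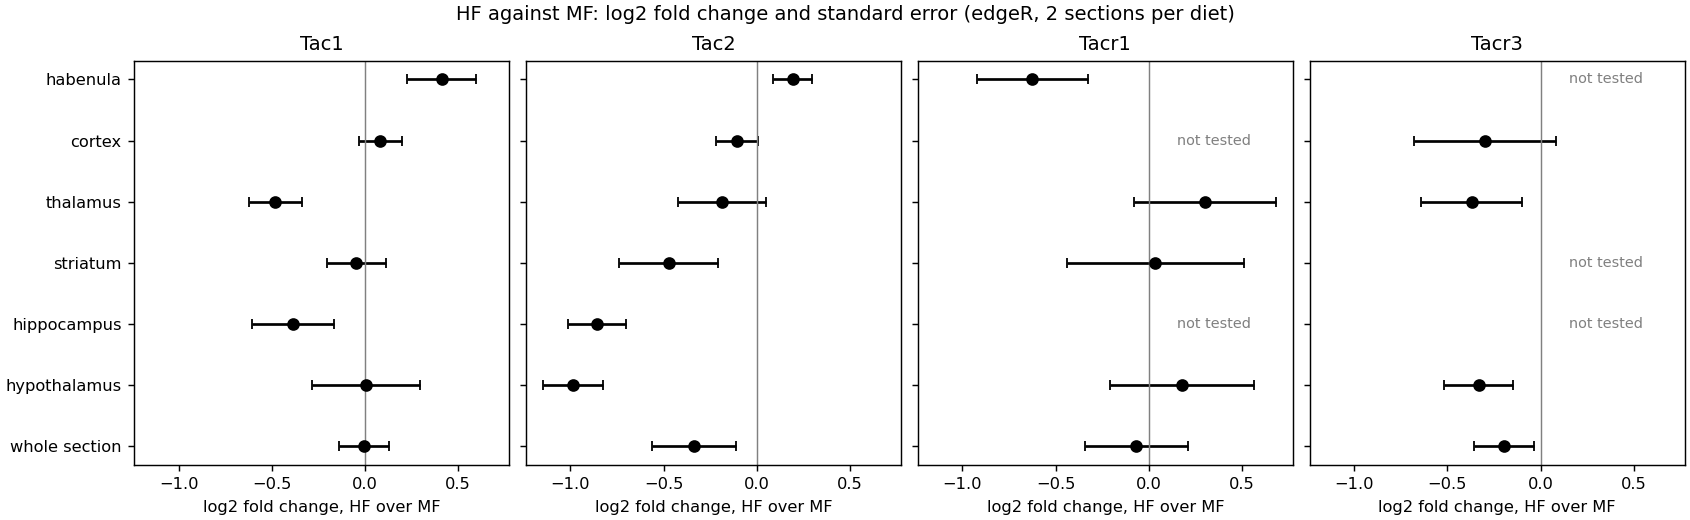
Log2 fold change of HF over MF with its standard error for each gene in the whole section and 6 areas (edgeR, 2 sections per diet). The lowest values are those of Tac2 in the hypothalamus (−0.99) and hippocampus (−0.86), while Tac2 in the habenula lies above 0.

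Tac2 was lower in the HF sections in most areas outside the habenula. In the hypothalamus it was at 162 and 144 CPM in the MF sections and at 92.1 and 64.4 CPM in the HF sections, and the groups did not overlap. Among all genes tested there, 17.1% were lower in both HF sections than in both MF sections. The log2 fold change was −0.99 (standard error 0.16), and the test did not pass with edgeR (adjusted p = 0.733) but passed with DESeq2 (adjusted p = 1.4e-04). Without HF replicate 1 it was −1.26 (edgeR adjusted p = 2.0e-21) and without HF replicate 2 it was −0.76 (adjusted p = 2.0e-07), where the lone HF section is assumed to vary like the MF sections. Both are past the threshold, but 788 and 607 genes were called in the hypothalamus in those fits, against 0 with all sections. Without MF replicate 1 the adjusted p was 1, and without MF replicate 2 it was 0.999.

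The same order of groups was seen in each of the 3 hypothalamic clusters. In the cluster led by Pmch and Hcrt, neuropeptides of the lateral hypothalamus, Tac2 was at 154 and 116 CPM in MF and at 83.6 and 75.1 in HF. In the cluster led by Oxt and Avp, hormones of magnocellular neurons, with Agrp, Pomc and Ghrh of the arcuate nucleus also among its first 10 genes, it was at 179 and 204 CPM in MF and at 111 and 59.5 in HF. In the cluster led by Ccdc42 it was at 166 and 126 CPM in MF and at 32.8 and 32.3 in HF. Of genes with a mean of at least 5 CPM, 15.9%, 21% and 17.7% were lower in both HF sections in these clusters, in the order given, and 20.8%, 20.1% and 17% were higher. At the finer clustering the hypothalamus held 4 named clusters, and the order did not hold in all of them. In the cluster led by Avp and Oxt Tac2 was at 84.5 and 130 CPM in MF and at 95.3 and 62.2 in HF, so the groups overlapped. That cluster held 3 and 36 spots in MF and 139 and 106 in HF, and the one led by Oxt, Asb4 and Hdc 232 and 120 in MF and 97 and 47 in HF. In the unnamed cluster led by Agrp, Cga and Pomc, Tac2 was at 263 and 317 CPM in MF and at 241 in HF replicate 1, and HF replicate 2 had no spot of it. Tac1 in the Ccdc42 cluster ran the other way, with 95.3 and 101 CPM in MF and 140 and 128 in HF. That cluster held 163 and 146 spots in MF and 102 and 75 in HF, and the part of these differences in make-up and level of section in the Tac2 result was not tested.

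In the hippocampus Tac2 was at 65.6 and 48.7 CPM in the MF sections and at 32.01 and 32.2 CPM in the HF sections. The groups did not overlap, as for 19.7% of all genes tested there in this direction and 17.8% in the other. The log2 fold change was −0.86 (standard error 0.16, edgeR adjusted p = 0.082), short of the threshold. It was called without HF replicate 1 (−0.86, adjusted p = 3.6e-04) and without HF replicate 2 (−0.89, adjusted p = 1.5e-04) but fell to −0.59 without MF replicate 1 (adjusted p = 0.999). In these fits 394, 113 and 0 genes were called in the hippocampus, against 4 with all sections. DESeq2 gave −0.83 and no adjusted p.

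Tac2 in hippocampal spots differed with their distance to the habenula. Within 2 spot spacings of a habenula spot they held 83.1 and 77.9 CPM in MF and 42.7 and 38.3 in HF. From 2 to 5 spacings it was 55.6 and 48.6 CPM in MF and 30.9 and 44.6 in HF, so HF replicate 2 was higher there than within 2. Between 5 and 10 spacings they held 44.0 and 23.7 CPM in MF and 24.2 and 13.8 in HF. MF replicate 2 and HF replicate 1 thus overlapped at that distance. Beyond 10 spacings a section had 3 to 27 spots with 0 to 12 Tac2 UMIs, and MF replicate 2 reached 102 CPM. Without spots within 5 spacings the log2 fold change was −0.93 (adjusted p = 0.726). Of the 9 habenula markers, 8 were lower in HF in the hippocampus and none was called. Their median log2 fold change there was −0.72, beside 0.00045 over all genes. Their summed level in the hippocampus was 190 and 146 CPM in MF and 130 and 136 in HF, and they are also expressed outside the habenula. Chrnb3, a nicotinic receptor subunit, was at 4.78 and 2.88 CPM in MF and at 1.65 and 1.83 in HF. Gpr151 was at 22.7 and 11.5 CPM in MF and at 9.90 and 8.23 in HF. The part of habenula RNA in hippocampal spots in the Tac2 result was not tested.

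**Figure D4:**
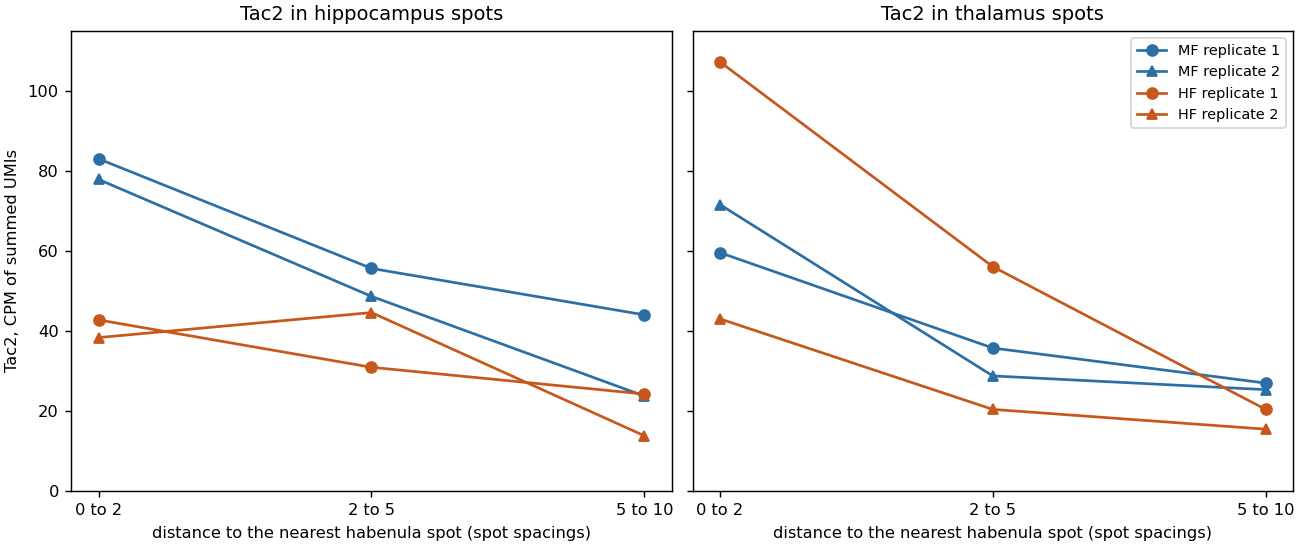
Tac2 in hippocampal spots (left) and thalamic spots (right) by distance to the nearest habenula spot in spot spacings, as CPM of summed UMIs, with 1 line per section. All sections are lower at 5 to 10 spacings than within 2, and spots beyond 10 are not drawn. Near the habenula the 2 MF sections lie above the 2 HF sections in the hippocampus but not in the thalamus.

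Thalamic spots showed another order. Within 2 spacings of the habenula Tac2 was at 59.6 and 71.6 CPM in MF and at 107 and 43.0 in HF. HF replicate 1 was thus the highest section and HF replicate 2 the lowest. Over the whole thalamus the log2 fold change was −0.19 (standard error 0.24, adjusted p = 0.891). Without HF replicate 1 it was −0.73 and was called (adjusted p = 0.0026), beside 826 genes called in that fit, and without HF replicate 2 it turned to 0.14 (adjusted p = 0.500). Without spots within 5 spacings of the habenula it was −0.82 (adjusted p = 0.478). Over the whole thalamus, spots near the habenula included, all 9 habenula markers were higher in HF and none was called. Their median log2 fold change was 0.37, beside 0.0027 over all genes. Their summed levels were 108 and 113 CPM in MF and 166 and 96.8 in HF.

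Among the named subregions of the hippocampus the lowest log2 fold change of Tac2 was in CA2-3. It was at 46.4 and 20.8 CPM in the MF sections and at 8.60 and 5.99 CPM in the HF sections. These values rest on 54 and 10 UMIs in MF and on 4 and 5 in HF. The log2 fold change was −2.42 (standard error 0.47), which passed with edgeR (adjusted p = 0.0044) in a subregion where 0.108% of all genes tested were called. It did not pass with DESeq2 (adjusted p = 1), nor without MF replicate 1 (−1.56, adjusted p = 0.999) or without HF replicate 2 (−2.14, adjusted p = 0.131). In the matrix (strata outside the cell layers) Tac2 differed by −1.01 on the log2 scale (standard error 0.25, adjusted p = 0.161), in the DG by −0.68 (standard error 0.28, adjusted p = 0.772) and in CA1 by −0.79 (standard error 0.49, adjusted p = 0.898). Of all genes tested, 0.0304% were called in the matrix, 0.0432% in the DG and 0.0584% in CA1. The groups overlapped in CA1 and in none of the other 3 subregions, where 16.9% (CA2-3), 18.1% (DG) and 16.8% (matrix) of genes with a mean of at least 5 CPM were lower in both HF sections. The habenula markers summed to 154 and 104 CPM in MF and to 114 and 131 in HF in CA2-3. Hippocampal spots in no named subregion were 78 and 78 in MF and 89 and 106 in HF. Tac2 in them was at 83.2 and 74.1 CPM in MF and at 45.6 and 60.8 in HF. That rests on 199 and 73 UMIs in MF and on 47 and 75 in HF.

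**Figure D5:**
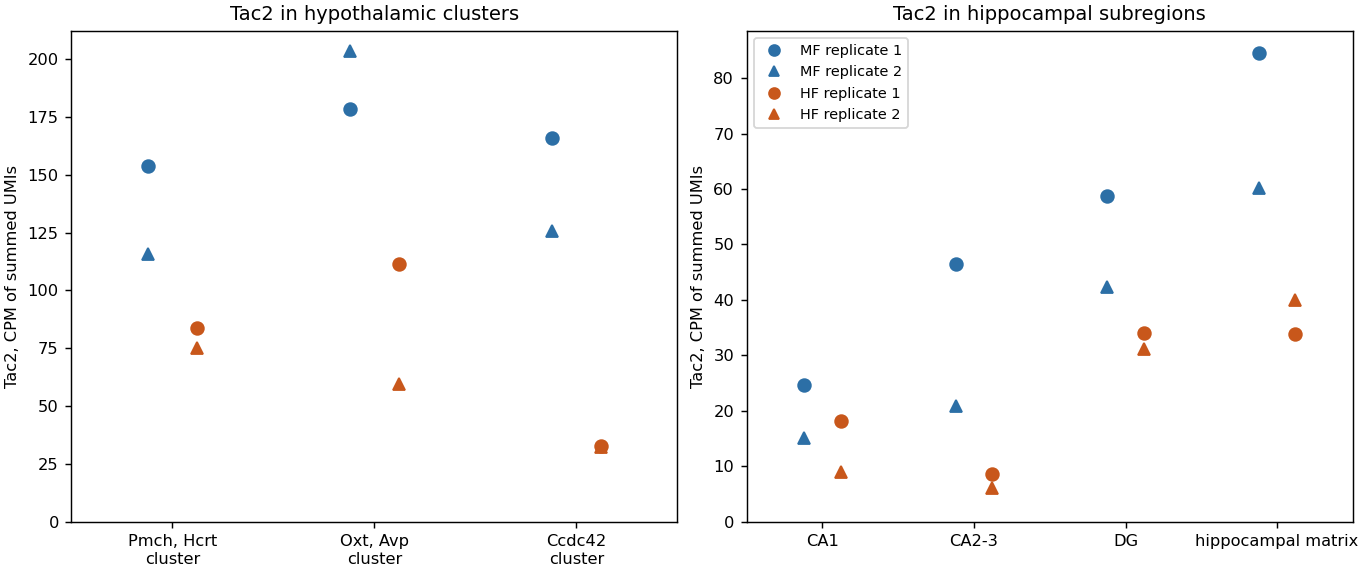
Tac2 as CPM of summed UMIs in 3 hypothalamic clusters, named by their leading genes (left), and in 4 hippocampal subregions (right), with 1 point per section. Both HF sections lie below both MF sections in every group except CA1.

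In the habenula itself Tac2 was not lower in HF. The log2 fold change was 0.19 (standard error 0.11, adjusted p = 0.752), and both HF sections lay above both MF sections, as did 19% of all genes tested there. All 9 habenula markers were also higher in HF in this area, with none called and a median of 0.29 beside −0.00020 over all genes. At the finer clustering, in the Chrna3 group, the Tac2 values of the HF sections lay below those of the MF sections (1757 and 1610 against 1807 and 1991 CPM), so the order in the habenula depends on which spots are taken. In the whole section Tac2 was at 92.6 and 88.9 CPM in MF and at 91.9 and 53.3 in HF (log2 fold change −0.34, standard error 0.23, adjusted p = 0.768). HF replicate 2, the low section, also had the fewest habenula spots.

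Whether the diet difference itself varied between areas was tested with area by diet terms. Over cortex, hippocampus, thalamus, hypothalamus and striatum the Tac2 terms spanned 0.97 on the log2 scale and did not pass (adjusted p = 0.065), where 0.0937% of all genes were called. With 1 section left out, the Tac2 terms spanned 1.33 (without MF replicate 1), 1.05 (without MF replicate 2), 1.23 (without HF replicate 1) and 1.03 (without HF replicate 2). Whether they passed depended on the section left out. With all sections, Tac1 (edgeR adjusted p = 0.717), Tacr1 (0.995) and Tacr3 (0.990) did not pass. Whether Tac1 passed also depended on the section left out. Its terms spanned 0.97 without HF replicate 2, beside 0.64 with all sections. Over all 12 areas, Tac2 was lower in both HF sections than in both MF sections in 9, higher in 1 and overlapping in 2 (striatum and thalamus). In the cortex this difference was small, with 31.9 and 34.6 CPM in MF and 29.5 and 31.2 in HF (log2 fold change −0.11, adjusted p = 0.854), and 21.1% of all genes tested there were lower in the same way. In the 6 areas that were not tested, the share of such genes, among those with a mean of at least 5 CPM, was 21.4% (choroid plexus), 16.9% (ependyma, and likewise piriform cortex and amygdala), 14.9% (meninges), 15% (reticular thalamic nucleus) and 15.4% (white matter). The shares for the other direction were 14.1% (choroid plexus), 16.8% (ependyma) and 16.6% (piriform cortex and amygdala). They were 16.2% (meninges), 18.6% (reticular thalamic nucleus) and 19.1% (white matter). Tac2 rested on few UMIs in some of these areas. In the ependyma there were 53 and 44 in MF and 9 and 5 in HF. In the choroid plexus there were 49 and 23 in MF and 25 and 29 in HF. In the reticular thalamic nucleus there were 74 and 19 in MF and 4 and 42 in HF. In the striatum Tac2 was at 55.6 and 25.3 CPM in MF and at 40.3 and 28.7 in HF, where 17.3% of genes were lower and 17.9% higher without overlap. Its log2 fold change there was −0.47 (standard error 0.27, adjusted p = 0.826) and turned to 0.38 without MF replicate 1. With the finer clustering, whose striatum took in 19 to 49 spots per section that had been hypothalamus, it was −1.79 and was called (edgeR adjusted p = 9.4e-04). In that fit 6 of 11600 genes were called.

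Tac1 was called in 0 of the 7 comparisons. In the striatum, where it was highest, its log2 fold change was −0.05 (standard error 0.16, adjusted p = 0.989), and the groups overlapped. In the hypothalamus it was 0.0031 (standard error 0.29, adjusted p = 0.999); HF replicate 1 with 119 CPM and HF replicate 2 with 55.2 lay on either side of the MF sections (82.8 and 88.1). Leaving out either HF section moved the log2 fold change in opposite directions, to −0.64 without HF replicate 1 and to 0.45 without HF replicate 2. In the thalamus Tac1 was at 20.8 and 22.5 CPM in MF and at 15.03 and 16.1 in HF; 17.9% of genes tested there were lower in the same way and 20.4% higher. The log2 fold change in the thalamus was −0.48 (standard error 0.14, adjusted p = 0.555), and it was called without HF replicate 2 (−0.53, adjusted p = 0.026), beside 1055 genes called in that fit. In the cortex it was higher in both HF sections (28.4 and 26.5 CPM against 26.4 and 25.6), as were 16.4% of genes, with a log2 fold change of 0.08 (adjusted p = 0.895). In the habenula it was at 46.0 and 57.7 CPM in MF and at 77.3 and 52.1 in HF, which overlapped (log2 fold change 0.41, standard error 0.19, unadjusted p = 0.038, adjusted p = 0.703 with edgeR). In the hippocampus the log2 fold change was −0.39 (standard error 0.22, adjusted p = 0.685), with 19.9 and 16.1 CPM in MF and 17.2 and 11.7 in HF.

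The receptor genes were tested with edgeR where they passed its filter on low counts. For Tacr1 in the habenula the log2 fold change was −0.63 (standard error 0.30, unadjusted p = 0.048, adjusted p = 0.719 with edgeR). Both HF sections lay below both MF sections, as for 16.8% of all genes tested there, from 73 and 32 UMIs in MF and 22 and 10 in HF. For Tacr3 in the hypothalamus it was −0.33 (standard error 0.18, edgeR adjusted p = 0.744). There both HF sections lay below both MF sections, as for 17.1% of all genes tested, while 21.4% lay above. In the hippocampus neither receptor gene passed the filter, with 1 to 10 UMIs per section, and DESeq2 gave 0.22 (standard error 1.16) for Tacr1 and 0.083 (standard error 1.30) for Tacr3.

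The other genes of the pathway were read from fixed lists, with 0 genes called by edgeR in any of the 7 comparisons. Tac4 and Tacr2, the rest of the family, did not pass the filter in any of them. Among 5 genes that process propeptides, 4 were lower and 1 higher in HF in the hippocampus, where the largest differences were those of Pcsk1, a prohormone convertase (log2 fold change −0.14, standard error 0.15), and Cpe, a carboxypeptidase (−0.11, standard error 0.10). Among 6 peptidases that degrade tachykinins, 2 were higher and 4 lower in the hippocampus, where Dpp4 had −1.02 (standard error 0.41, adjusted p = 0.571) and Mme, which encodes neprilysin, −0.77 (standard error 0.47, adjusted p = 0.722). Of 14 genes of Gq signalling, 7 were higher and 7 lower there, and the lowest adjusted p among the named ones was that of Plcb4, a phospholipase C (−0.57, standard error 0.12, adjusted p = 0.148); Itpr3, an IP3 receptor, had −0.67 (standard error 0.40). The 5 measured genes of receptor desensitization were all higher in HF in the whole section, the thalamus, the habenula and the hypothalamus, 4 of 5 in the cortex and the hippocampus, and 2 of 5 in the striatum. Their medians ran from −0.02 (striatum) to 0.16 (hippocampus), beside −0.00038 to 0.0029 over all genes. In the hippocampus Grk5 had 0.27 (standard error 0.23) and Arrb2 0.20 (standard error 0.14). Among cell markers in the hippocampus, the largest differences were those of Gad1 (0.39, standard error 0.18) and Pvalb (−0.16, standard error 0.10) for GABA interneurons and of Npy (0.25, standard error 0.11) and Sst (0.22, standard error 0.17) for interneurons with the NK1 receptor. In these lists 4 of 8 and 2 of 3 genes tested were higher. Drd2 (−0.53, standard error 0.33) and Adora2a (−0.51, standard error 0.43) led for striatal indirect-pathway neurons (1 of 4 higher), and Pdyn (−0.27, standard error 0.27) and Eya1 (0.11, standard error 0.18) for direct-pathway neurons (2 of 3 higher). None of these passed.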

How the data were processed

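Visium-FFPE data of 4 brain sections were analysed. The authors aligned probe reads to mm10 with Space Ranger (2.0.0) and deposited UMI counts per spot without normalization, and per the file headers Moran's I as a score for each feature; its totals per feature equalled those of the counts. Genes were located with GENCODE vM21 (19451 of 19465 features matched). The study's own spot filter (500 UMIs, 250 genes) took out 18 spots.

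Areas came from Leiden clustering (2000 variable genes, centred per section; 30 principal components; 20 neighbours) at resolution 1 (finer clustering: 2) with leidenalg 0.10.2, leaving out the 4 genes, immediate early genes, neuropeptides and list genes that are no area marker. A cluster took the area with the most markers among its 50 leading genes, with at least 3 there and 1 among the first 10. Harmony and histology were not used here. UMIs were summed per section and area and tested in edgeR 4.0.16 under R 4.3.3 (quasi-likelihood, TMM, filterByExpr, Benjamini-Hochberg), at the methods' threshold of 0.05 and 1.2-fold; the methods' test over spots was not used, since spots are not replicates. Area by diet terms had section as a block. DESeq2 1.42.0 was an alternative. Tests on simulated counts recovered 90.5% of 200 genes changed 2-fold in the whole section, 88% in the hippocampus and 79% in the habenula. For the area by diet terms it was 90%. False calls at 2-fold numbered 7, 14, 2 and 6 in that order. For 1.5-fold, 48%, 53% and 29% were recovered in the whole section, hippocampus and habenula, with 8, 11 and 0 false calls. Whether the real sections would give such shares was not tested. Genes named are the 4 members, the 3 most like each, the 2 list genes with the largest difference in the hippocampus, and habenula markers. The list of arcuate genes is not reported here. The members and lists were chosen with earlier results of these data known.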

Additional observations from a re-analysis of the deposited data

Results flagged for a closer look

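With the habenula added as a sixth area, a fit chosen after seeing the data, the log2 fold changes of Tac2 spanned 1.18 between areas, from −0.94 relative to the cortex in the hypothalamus to 0.24 in the habenula. The terms passed (edgeR adjusted p = 0.0050), as did 0.149% of 14069 genes. Tac2 had itself been chosen with such differences in these data known, and the test over 5 areas without the habenula did not pass (0.97, adjusted p = 0.065). The Tac2 terms with the habenula also passed on thinned spots (0.96, edgeR adjusted p = 0.0022), as did 0.111% of genes. With 1 section left out, they spanned 1.31 (without MF replicate 1), 1.36 (without MF replicate 2), 1.41 (without HF replicate 1) and 1.13 (without HF replicate 2). Whether they passed depended on the section left out. With all sections, Tac1, Tacr1 and Tacr3 did not pass this test (edgeR adjusted p = 0.620, 0.716 and 0.996). Whether Tac1 passed also depended on the section left out. Its terms spanned 1.14 without HF replicate 2, beside 0.86 with all sections.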

How the results depend on the processing

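Over the alternatives, 227 of the log2 fold changes of the 4 genes kept their direction and side of the threshold, 27 changed sign, 12 came past the threshold and 4 fell short of it. Low counts limit the receptor genes most. Tacr1 in the cortex, Tacr3 in the habenula and the striatum, and both in the hippocampus did not pass edgeR's filter on low counts. Fits without 1 section assume that a lone section varies like the other group, and the cause of the changes below was not tested.

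Replicate numbers did not pair the sections: deviations of same-numbered sections correlated at −0.165 over the whole section and between −0.172 and −0.003 in the 6 areas. A block for the replicate number moved the calls to 24 for the habenula, 15 for the thalamus, 10 for the striatum, 5 for CA2-3, 2 for the hippocampus and 89 for the cortex. In the block fit Tac1 in the hypothalamus was at −0.074 on the log2 scale and Tac2 in CA2-3 at −2.13 (adjusted p = 0.208). The crossed replicate block, chosen after seeing the data, called 62 genes for the hippocampus, 51 for the thalamus, 46 for the habenula, 32 for the cortex, 15 for the striatum, 14 for CA2-3, 11 for the whole section and 1 for the hypothalamus.

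DESeq2 called 22 genes in the whole section, 22 in the hippocampus, 5 in the thalamus, 4 in the habenula, 6 in the hypothalamus, 1 in the striatum and 0 in CA2-3, with Tac2 at −0.99 in the hypothalamus and −2.28 in CA2-3. Without the filter on low counts it was 5, 108, 120, 51, 94, 17 and 17 in the same order, and 130 in the cortex. Tac2 then passed in the hippocampus (−0.86, adjusted p = 1.6e-06) and the hypothalamus (−0.99, adjusted p = 9.8e-07), and Tac1 in the hypothalamus was at −0.00045. With spots thinned to 5000 UMIs, 10 genes were called in the hippocampus, 1 in the thalamus and 1 in CA2-3. Signs then changed for Tac1 in the striatum (0.0065) and the whole section (0.058), Tac2 in the cortex (0.12), Tacr1 in the whole section (0.21) and Tacr3 in the thalamus (0.13). With library size alone, Tac1 in the whole section was at 0.0045. With the finer clustering, 10 genes were called in the hippocampus, Tac1 was at −0.15 in the hypothalamus and 0.19 in the striatum, Tacr1 at −0.27 in the striatum and Tac2 at −1.79 there. Without spots near the habenula 2 genes were called in the hippocampus, and 19 with the replicate block added.

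Leaving out 1 section at a time, Tac1 ranged from −0.64 to 0.45 in the hypothalamus, −0.32 to 0.28 in the striatum, −0.54 to −0.41 in the thalamus and −0.20 to 0.17 in the whole section. Tac2 ranged from −2.69 to −1.56 in CA2-3, −1.02 to −0.59 in the hippocampus, −1.26 to −0.76 in the hypothalamus, −0.77 to 0.38 in the striatum, −0.73 to 0.14 in the thalamus and −0.77 to −0.0063 in the whole section, where it was called without HF replicate 1. Tacr1 ranged from −0.30 to 0.60 in the hypothalamus, −0.35 to 0.68 in the striatum, −0.34 to 0.65 in the thalamus and −0.50 to 0.30 in the whole section, and Tacr3 from −0.57 to 0.67 in the cortex. The number of genes called ranged from 9 to 28 in CA2-3, 17 to 831 in the cortex, 0 to 394 in the hippocampus, 0 to 788 in the hypothalamus, 12 to 193 in the habenula, 0 to 121 in the striatum, 7 to 1055 in the thalamus and 0 to 1166 in the whole section, and the high ends came from fits without an HF section. The area by diet terms ranged from 0.65 to 0.97 for Tac1 and 1.03 to 1.33 for Tac2, and with the habenula from 0.71 to 1.14 for Tac1 and 1.13 to 1.41 for Tac2.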
